A study of Homo sapiens with 59 samples.

Results

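The genes of the proteasome were followed through the histone marks of NCI-H661 cells, an established line from a human large cell carcinoma of the lung that expresses the embryonic chromatin proteins DPPA2 and DPPA4. Members were the 49 protein-coding autosomal genes of GENCODE 44 whose symbols begin with PSMA, PSMB, PSMC, PSMD, PSME, PSMF or PSMG and a number, of 19111 protein-coding autosomal genes in all. The rule used symbols only and no measured value. By role, 47 members are core subunits, regulatory subunits, activators, an inhibitor or assembly chaperones. The other 2, PSMC3IP (a recombination cofactor) and PSME3IP1 (a binding partner of PSME3), share the symbol pattern but are not subunits. PSMD10, on chromosome X, was outside the rule. The promoter of each gene was the window of 1500 bp on each side of the canonical TSS, 3001 bp in all (GRCh38), and it was called marked when at least 300 bp lay under peaks.

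In the knockdown experiment, the lines shDPPA2, shDPPA4 and shDPPA2+4 had inducible hairpin RNAs that target DPPA2, DPPA4 or both genes and were grown for 7 days with doxycycline at 2 µg/ml (DOX) or with water alone (H2O). The 3 lines were sorted pools of cells and not single clones, and the shDPPA2+4 line was made from the shDPPA2 line. No line with a control hairpin was analysed here, so doxycycline itself and the hairpins cannot be told apart. H3K4me3, H3K27me3 and H2AK119ub were profiled by ChIP-seq in 2 libraries per line and treatment. In the inhibitor experiment, parental cells without hairpins were grown for 1 day with 10 µM A-485, which blocks the p300 and CBP acetyltransferases, or with DMSO, and H3K27ac, H2AK119ub (2 libraries per treatment), H3K27me3 (3 per treatment) and SUZ12 (1 DMSO library) were profiled.

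The proteasome degrades proteins tagged with ubiquitin. Its barrel-shaped core is built from rings of alpha subunits, which gate the entrance, and rings of beta subunits, which include the proteolytic sites. Interferon exchanges the catalytic beta subunits for PSMB8, PSMB9 and PSMB10 in the immunoproteasome, and PSMA8 (testis) and PSMB11 (thymus) replace core subunits in single tissues. A regulatory particle of PSMC ATPases, which unfold substrates, and PSMD proteins, which bind, deubiquitinate and position them, caps the core, while the PSME activators can take its place, PSMF1 inhibits the core and the PSMG chaperones assemble it. These are housekeeping genes in dividing cells. Of the marks, H3K4me3 and H3K27ac lie at active promoters, H3K27me3 is laid down by Polycomb complex PRC2, of which SUZ12 is a subunit, and H2AK119ub by Polycomb complex PRC1.

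The 51 peak lists held 30994 to 33108 peaks per library for H3K4me3, 52030 to 107509 for H2AK119ub in the knockdown lines, and 27156 to 135072 for H3K27ac. The 3 H2AK119ub libraries of DOX replicate 3 stood apart. Their median Jaccard index (bases shared by 2 lists over bases covered by either) with other H2AK119ub lists was 0.197 to 0.255, against 0.284 to 0.331 for the other 9, and with H3K27me3 lists it was 0.136 to 0.152, against 0.0362 to 0.0947. H2AK119ub values with DOX are therefore also given for replicates 1 and 3 apart. The libraries labelled H3K27ac replicate 4 went against their labels in the input: all 91 peaks that the A-485 list shared end to end with DMSO lists of other targets had the DMSO input counts, and all 616 that the DMSO list shared with A-485 lists had the A-485 input counts. Whether the inputs or the lists themselves were exchanged cannot be told apart from these files. For H3K27ac, replicate 2 is therefore also given alone, replicate 4 is named by its labels, and values with the treatments of replicate 4 exchanged, an alternative chosen after seeing the data, are given beside the main ones. EPCAM, CDH1, KRT18, NKX2-1, VIM and CDH2 had H3K4me3 promoter peaks in all 12 libraries, whereas KRT8, SFTPB, SFTPC, NAPSA and the blood and endothelial markers PTPRC, CD3E, PECAM1 and CDH5 had none in any.

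H3K4me3 was present at nearly the whole family in every library. It marked 47 of 49 promoters (95.9%) in each of the 12 libraries, against 70.7 to 71.9% of all promoters. All 7 constitutive alpha subunits, all 7 constitutive beta subunits, the 3 immunoproteasome subunits, the 6 ATPases, the 13 PSMD genes of the regulatory particle, the 4 activators, PSMF1 and the 4 PSMG chaperones were marked. The tissue-restricted subunits PSMA8 and PSMB11 had 0 bp of H3K4me3 in all 12 libraries. PSMA7 (alpha ring) and PSMC2 (ATPase ring) were covered over all 3001 bp in every library. Read levels were counted over the merged peak region that overlaps each promoter, as CPM per kb. CPM are reads scaled to the library total over tested regions, adjusted by the TMM factors of the edgeR fit. On this scale the median of the 47 member regions was 17.7, against 11.2 over all 22060 regions. Only 11870 of these lay at promoters, and their own median is not given.

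PSMB8, the interferon-inducible catalytic subunit at chr6:32842547-32845547, had the narrowest H3K4me3 coverage and the lowest H3K4me3 level of the marked members. Its covered length was 1600 and 1700 bp in shDPPA2 DOX libraries against 700 and 900 bp in H2O libraries, 1400 and 900 bp against 1100 and 1200 bp in shDPPA4, and 1000 and 1200 bp against 800 and 900 bp in shDPPA2+4. The H3K4me3 level of its region was 3.83 ± 0.93 CPM per kb with DOX and 3.34 ± 0.58 with H2O (SD, n = 6 each), and the groups overlapped. The neighbouring immunoproteasome subunit PSMB9, whose window also holds the start of the peptide transporter gene TAP1, had 22.7 ± 0.70 with DOX and 22.3 ± 0.81 with H2O (SD, n = 6 each). PSMB8 was wider with DOX in 5 of 6 pairs, and its main peak had a lower log2 ratio of ChIP over input in 6 of 6 (2.46 to 3.45 with DOX and 2.90 to 4.45 with H2O). The change of its region over the 3 lines, 0.17 ± 0.14 (log2, SE), did not pass (adjusted p = 0.450, edgeR).

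H2AK119ub divided the family. Of the 47 members with H3K4me3, 26.3 ± 18.1% carried H2AK119ub in DOX libraries and 38.3 ± 8.41% in H2O libraries (mean ± SD, n = 6 each). Among all 13313 promoters with H3K4me3 in the 12 libraries, the shares were 55.1 ± 17.0% with DOX and 69.0 ± 6.33% with H2O. By replicate number, the members' share was 42.6% (replicate 1) and 9.94% (replicate 3) with DOX and 44.7 and 31.9% with H2O, and that of all promoters 69.5 and 40.7% with DOX and 74.3 and 63.6% with H2O (means of 3 libraries). The members' share was the lower in all 12 knockdown libraries and in the 4 parental ones. These libraries share the same genes, and the gap was not tested across genes.

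**Figure D1:**
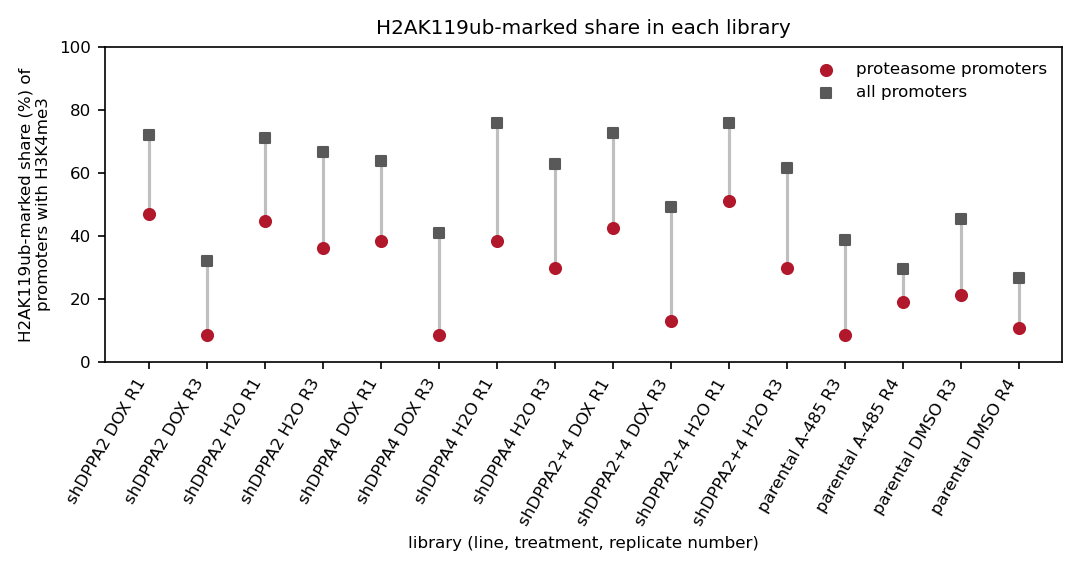
Share (%) of promoters with H3K4me3 that were also H2AK119ub-marked (y axis) in each of 16 libraries (x axis), for the 47 proteasome promoters (circles) and all 13313 (squares), joined by a line. The circle lies below the square in every library, and the 3 DOX replicate 3 libraries hold the lowest circles of the knockdown lines (8.51 to 12.8%).

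Base composition of the windows differed along the same line. Members with H2AK119ub in none of the 6 H2O libraries (20 of 47) had a median GC content of 48.2%, those with it in 1 to 3 (8 of 47) 52.7%, and those with it in 4 to 6 (19 of 47) 53.3%. Among all promoters with H3K4me3 the medians were 47.4, 50.3 and 57.2%, and the classes held 11, 22.9 and 66.1% of promoters. Below a GC content of 50%, 5.83 ± 8.01% of 20 members were marked with DOX and 11.7 ± 6.06% with H2O, against 22.8 ± 14.4% and 34.0 ± 9.24% of 3349 promoters (SD over 6 libraries). Between 50 and 55% GC, the shares were 35.8 ± 27.8% with DOX and 47.5 ± 13.3% with H2O for 20 members, against 45.9 ± 22.5% and 63.9 ± 8.86% for 3739 promoters. At 55% and above, 57.1 ± 28.6% of 7 members were marked with DOX and 88.1 ± 10.8% with H2O, against 78.0 ± 15.5% and 90.8 ± 3.46% of 6225 promoters. The DOX values differed by replicate number. In DOX replicates 1 and 3 the members' shares were 11.7 and 0.0% below 50% GC, 60 and 11.7% between 50 and 55%, and 81.0 and 33.3% at 55% and above, against 35.6 and 10.1%, 65.4 and 26.4%, and 90.3 and 65.7% of promoters. The gap between members and all promoters with H2O was widest at low GC, and at high GC it was smaller than the spread between libraries.

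By role, members differed in how many carried the mark, which is given as a description with no test. Among the constitutive core, 1 of 7 constitutive beta subunits (PSMB3) and 2 of 7 alpha subunits (PSMA5 and PSMA7) were marked in any H2O library. All 3 immunoproteasome subunits, all 4 activators and all 4 PSMG chaperones of the core were. By the class shares given above, most of all promoters with H3K4me3 were also marked in at least 1 H2O library. Full counts in roles of 3 or 4 genes therefore do not set these roles apart from other promoters. Of the ATPases 4 of 6 and of the 13 PSMD genes 7 were marked at least once with H2O. The PSMD genes include PSMD5 and PSMD9, which are chaperones of the regulatory particle, and of these PSMD5 was marked in no H2O library and PSMD9 in 1. PSMF1, the inhibitor, had 0 bp in all 16 H2AK119ub libraries. In all, 16 of the 47 members with H3K4me3 were marked in none of the 12 knockdown libraries, among them the catalytic subunits PSMB6 and PSMB7, the alpha subunits PSMA1, PSMA3, PSMA4 and PSMA6, the ATPases PSMC1 and PSMC2, the ubiquitin receptor PSMD4 and the deubiquitinase PSMD14.

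**Figure D2:**
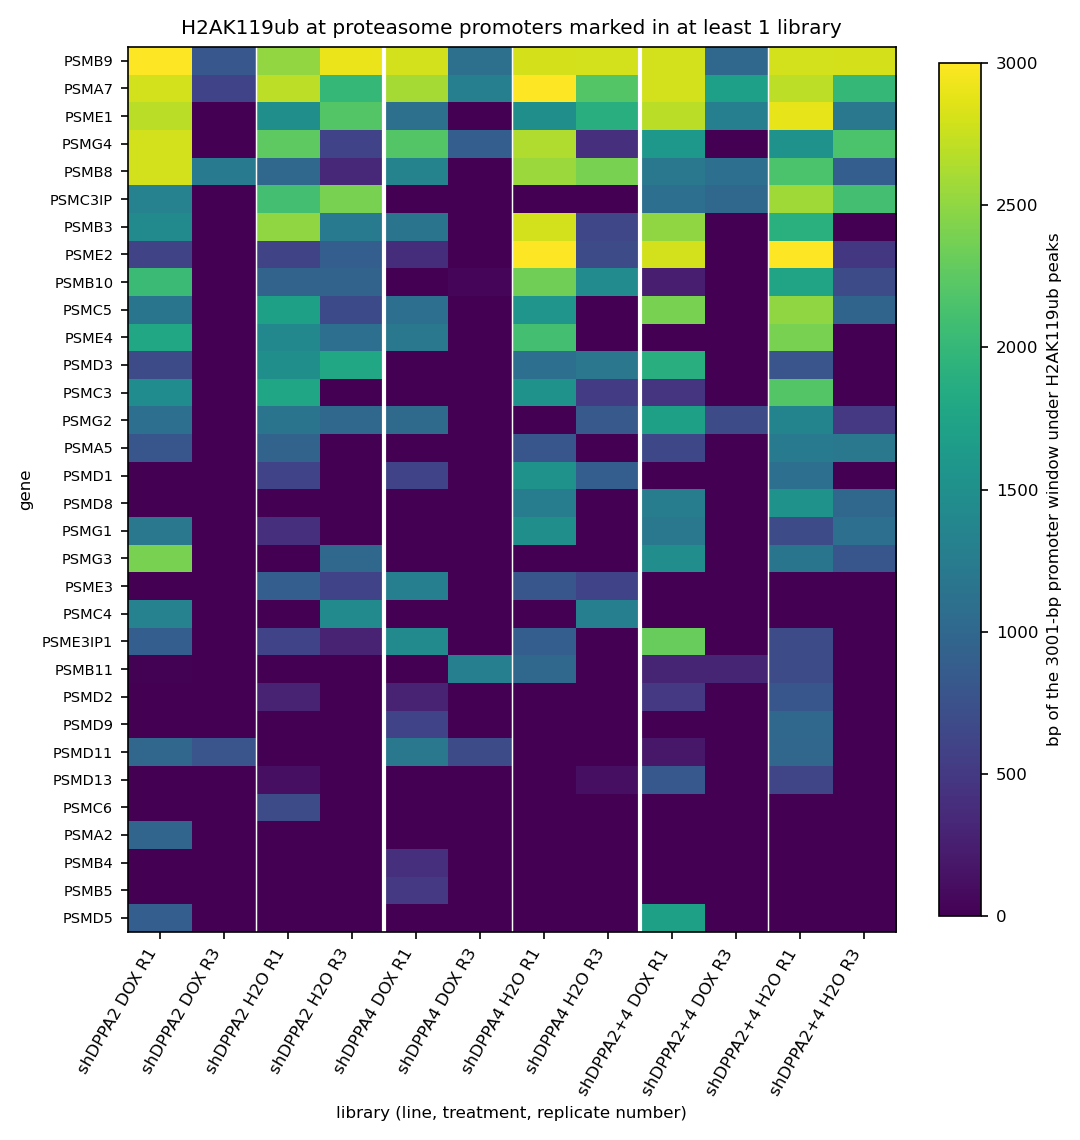
Bases of the 3001-bp window under H2AK119ub peaks (color, 0 to 3001 bp) for the 32 proteasome genes marked in at least 1 knockdown library (rows, ordered by their mean in H2O libraries) across 12 libraries (columns, DOX left of H2O within each line). PSMB9 and PSMA7 are covered in every column, and most rows are at 0 in the DOX replicate 3 columns.

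The most covered promoters were PSMB9, PSMA7 and the activator subunit PSME1. PSMB9 had 3001 and 809 bp in shDPPA2 DOX libraries (replicates 1 and 3) against 2509 and 2909 bp in H2O libraries, 2801 and 1109 bp against 2809 and 2801 bp in shDPPA4, and 2801 and 1009 bp against 2801 and 2809 bp in shDPPA2+4. PSMA7 had 2801 and 600 bp with DOX against 2701 and 1994 bp with H2O in shDPPA2, 2594 and 1294 bp against 3001 and 2194 bp in shDPPA4, and 2801 and 1694 bp against 2701 and 1994 bp in shDPPA2+4. At both genes replicate 1 was near the H2O level, and the lower values were those of the DOX replicate 3 libraries that stood apart. PSME1 had 2694 and 0 bp with DOX against 1494 and 2194 bp with H2O in shDPPA2, 1107 and 0 bp against 1494 and 1894 bp in shDPPA4, and 2694 and 1294 bp against 2894 and 1200 bp in shDPPA2+4. PSMB9 and PSMA7 were marked in all 16 libraries. Both windows hold another gene start, TAP1 at PSMB9 and SS18L1 at PSMA7, as do 8 of the 19 members marked in 4 to 6 H2O libraries against 3 of the 20 marked in none. The least covered among members marked in any H2O library were PSMC6 (ATPase), PSMD13 and PSMD11, with H2O means of 117 ± 286, 146 ± 243 and 165 ± 405 bp (SD, n = 6) and each marked in 1 H2O library. PSMC6 had 700 bp in replicate 1 of shDPPA2 with H2O and 0 bp in the other libraries. PSMD13 had 0 and 0 bp with DOX against 125 and 0 bp with H2O in shDPPA2, 0 and 0 bp against 0 and 125 bp in shDPPA4, and 825 and 0 bp against 625 and 0 bp in shDPPA2+4.

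Promoter sequences are shown for 5 members that differ in H2AK119ub. Each runs from 250 bases before to 50 after the transcript start in the gene's direction (RefSeq, GRCh38.p14). PSMB9 (chr6:32853942-32854241, plus strand) was marked throughout, PSMB10 (chr16:67936801-67937100, minus strand) lost the mark in 2 lines, PSMD11 (chr17:32444260-32444559, plus strand) gained it in 2, PSME1 (chr14:24135944-24136243, plus strand) gained it with A-485, and PSMB2 (chr1:35641477-35641776, minus strand) never had it. Capitals mark matches on either strand to 3 motifs, the antioxidant response element core TGACNNNGC, to which NFE2L1 can bind, the CCAAT box, and the core of the interferon-stimulated response element (GAAA, any 2 bases, GAAA). Matches to different motifs may overlap.
PSMB9: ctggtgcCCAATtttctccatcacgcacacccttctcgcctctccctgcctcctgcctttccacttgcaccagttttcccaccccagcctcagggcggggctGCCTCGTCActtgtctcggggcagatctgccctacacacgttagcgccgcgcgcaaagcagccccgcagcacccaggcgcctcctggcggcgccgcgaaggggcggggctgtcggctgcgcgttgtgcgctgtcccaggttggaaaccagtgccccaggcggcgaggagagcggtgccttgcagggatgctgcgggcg
PSMB10: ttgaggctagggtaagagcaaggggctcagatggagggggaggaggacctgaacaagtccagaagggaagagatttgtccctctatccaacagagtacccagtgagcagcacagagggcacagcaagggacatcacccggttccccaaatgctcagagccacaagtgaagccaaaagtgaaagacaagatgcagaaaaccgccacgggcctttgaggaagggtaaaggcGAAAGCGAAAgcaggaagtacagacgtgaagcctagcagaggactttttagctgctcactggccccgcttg
PSMD11: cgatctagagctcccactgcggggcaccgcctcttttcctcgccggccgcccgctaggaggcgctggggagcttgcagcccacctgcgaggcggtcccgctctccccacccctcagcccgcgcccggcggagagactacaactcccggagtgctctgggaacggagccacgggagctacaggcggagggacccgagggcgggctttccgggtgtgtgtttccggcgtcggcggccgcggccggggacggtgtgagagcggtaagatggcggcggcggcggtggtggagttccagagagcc
PSME1: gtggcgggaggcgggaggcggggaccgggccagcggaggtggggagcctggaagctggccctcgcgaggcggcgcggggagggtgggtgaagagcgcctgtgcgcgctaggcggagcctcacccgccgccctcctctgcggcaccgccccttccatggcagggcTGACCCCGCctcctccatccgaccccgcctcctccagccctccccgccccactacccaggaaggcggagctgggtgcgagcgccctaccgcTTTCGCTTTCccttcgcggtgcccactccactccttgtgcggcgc
PSMB2: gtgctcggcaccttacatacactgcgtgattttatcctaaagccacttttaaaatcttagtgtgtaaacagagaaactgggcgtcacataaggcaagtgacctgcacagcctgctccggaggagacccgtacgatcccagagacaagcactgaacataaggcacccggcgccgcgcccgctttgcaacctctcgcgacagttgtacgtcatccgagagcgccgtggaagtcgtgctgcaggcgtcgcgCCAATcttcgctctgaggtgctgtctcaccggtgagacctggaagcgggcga
PSMD11, PSME1 and PSMB9 are rich in G and C (72.3, 75 and 68.3% of these bases, with 35, 31 and 26 CpG), whereas PSMB10 has 54% and 7 CpG and PSMB2 56.7% and 25. Sequences were matched for 43 of 49 members, and those of PSMA7, PSMB1, PSMB6, PSMB7, PSMD4 and PSMG3 are not shown. TGACNNNGC was found in 13 of these 43 (30.2%), against 14.2% of 14616 promoters of this length. CCAAT was found in 20 (46.5%), against 36.3%. The interferon element core was found in 6 (14%), against 3.17%, and these were PSMA4, PSMB4, PSMB10, PSME1, PSME2 and PSMG4, the match being a description of letters and not of binding.

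Knockdown of DPPA2, DPPA4 or both was set against H2O in each line for H2AK119ub. The number of members marked was 22 and 4 in shDPPA2 DOX libraries (replicates 1 and 3) against 21 and 17 in H2O libraries, 18 and 5 against 19 and 14 in shDPPA4, and 21 and 7 against 25 and 14 in shDPPA2+4. Over the 47 members with H3K4me3, the share with DOX minus that with H2O was -12.1 ± 11.9 percentage points (SD, 6 pairs) and was below 0 in 4 of 6 pairs. Over all promoters with H3K4me3 it was -13.8 ± 12.9 and was below 0 in 5 of 6 pairs. By replicate number, the members' difference was -2.13 over the 3 pairs of replicate 1, against -4.77 for all promoters, and -22.0 over those of replicate 3, where the DOX libraries stood apart, against -22.9. The members' share was thus lower by about as much as that of all promoters, and the part of the replicate 3 libraries was not tested. Of the 32 members marked in any knockdown library, 21 were marked in fewer DOX than H2O libraries (65.6%), against 49.1% of 14901 promoters, 6 in more (18.8%), against 17.1%, and 5 in as many (15.6%), against 33.8%. These distances from the background were not tested.

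Lost promoters were those marked in both H2O libraries of a line and in neither DOX library, and gained promoters those with the opposite pattern. In shDPPA2, 1 member was lost (PSME3, the nuclear activator) and 1 gained (PSMD11, a scaffold subunit of the regulatory particle). Of all promoters 2.79% were lost and 1.41% gained in this line. In shDPPA4, 3 members were lost, PSMB10, the ATPase PSMC3 and the regulatory-particle subunit PSMD3, against 4.92% of all promoters, and PSMD11 was gained, against 0.366%. In shDPPA2+4, PSMB10 was lost, against 2.22%, and no member was gained, against 0.79%. As a share of promoters marked in both H2O libraries, the losses were 1 of 15 members against 6.36%, 3 of 12 against 11% and 1 of 14 against 4.97% in shDPPA2, shDPPA4 and shDPPA2+4 in turn. As a share of promoters marked in neither H2O library, the gains were 1 of 26 members against 3.52%, 1 of 28 against 0.965% and 0 of 24 against 2.11%. Each count rests on at most 3 genes, and its distance from the background was not tested.

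PSMB10, the third immunoproteasome subunit, had 0 and 51 bp in shDPPA4 DOX libraries (replicates 1 and 3), against 2351 and 1451 bp in H2O libraries. In shDPPA2+4 it had 251 and 0 bp with DOX against 1751 and 700 bp with H2O. In shDPPA2 it had 2051 and 0 bp with DOX against 951 and 951 bp with H2O, so that replicate 1 was higher with DOX there. PSMD3 had 0 and 0 bp in shDPPA4 DOX libraries against 1094 and 1194 bp in H2O libraries, and PSMC3 0 and 0 bp against 1539 and 539 bp. Neither was lost in shDPPA2 or shDPPA2+4, where the DOX replicate 1 libraries had 694 and 1894 bp at PSMD3 and 1462 and 462 bp at PSMC3.

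PSMD11 was the member gained in shDPPA2 and shDPPA4. It had 991 and 791 bp in shDPPA2 DOX libraries against 0 and 0 bp with H2O, and 1200 and 691 bp in shDPPA4 DOX libraries against 0 and 0 bp. In shDPPA2+4 it had 191 and 0 bp with DOX against 991 and 0 bp with H2O. PSMD11 was among the few members covered in DOX replicate 3 of shDPPA2 and shDPPA4. Under the stricter requirement of 1500 bp, within 500 bp of the TSS, or with all deposited peaks, PSMD11 was gained in neither line.

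The tissue-restricted PSMB11, which lacked H3K4me3, had 12 and 0 bp of H2AK119ub with DOX against 0 and 0 bp with H2O in shDPPA2, 0 and 1300 bp against 1000 and 0 bp in shDPPA4, and 312 and 312 bp against 700 and 0 bp in shDPPA2+4. PSMA8 had none in any library.

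The other activators and the inducible PSMB8 varied between lines. PSME3 had 0 and 0 bp in shDPPA2 DOX libraries against 900 and 600 bp with H2O, but 1300 and 0 bp against 800 and 600 bp in shDPPA4 and 0 bp in all libraries of shDPPA2+4. PSMB8 had 2801 and 1254 bp in shDPPA2 DOX libraries against 1000 and 347 bp with H2O. In shDPPA4 it had 1347 and 0 bp with DOX against 2547 and 2401 bp with H2O, and in shDPPA2+4 1200 and 1100 bp against 2147 and 900 bp. PSMB8 was thus higher with DOX in both pairs of one line and lower in both of another. PSME2, the partner of PSME1, had 610 and 0 bp with DOX against 610 and 901 bp with H2O in shDPPA2, 391 and 0 bp against 3001 and 701 bp in shDPPA4, and 2801 and 0 bp against 3001 and 491 bp in shDPPA2+4. It was at 0 in each DOX replicate 3 library. PSME4, an activator of proteasomes in chromatin and sperm, had 1800 and 0 bp with DOX against 1400 and 1100 bp with H2O in shDPPA2, 1200 and 0 bp against 2100 and 0 bp in shDPPA4, and 0 and 0 bp against 2393 and 0 bp in shDPPA2+4. No member had less coverage with DOX in all 6 pairs, against 2.56% of 14901 promoters, and none had more, against 0.094%.

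Reads were tested in regions that carried H2AK119ub in every knockdown library, which 5 members reached, PSMA7, PSMB3, PSMB8, PSMB9 and the chaperone PSMG3. Of these, only the windows of PSMA7 and PSMB9 were themselves marked in every library. The regions of PSMB3, PSMB8 and PSMG3 were 16600, 11500 and 17300 bp long. The PSMG3 window was marked in only 2 DOX and 3 H2O libraries. None of the 5 member regions was called in any line or over the 3 lines (thresholds of 0.05 for the adjusted p and 0.5 for the size of the log2 fold change, edgeR). Nor was any of all 6161 regions (0.0%), of which 1152, 377 and 183 had an unadjusted p under 0.05 in shDPPA2, shDPPA4 and shDPPA2+4. The region at PSMB3, chr17:38738501-38755100, extends well past the promoter. It had 16.9 and 2.14 CPM per kb in shDPPA2 DOX libraries against 30.5 and 19.8 with H2O, 25.6 and 9.19 against 22.9 and 13.7 in shDPPA4, and 22.8 and 5.61 against 20.8 and 12.8 in shDPPA2+4. Its log2 fold change in shDPPA2 was -1.82 ± 0.52 (SE, adjusted p = 0.191, edgeR), and DESeq2 gave -1.85 with an adjusted p of 0.0183. Without the DOX replicate 1 library it was -2.98 (adjusted p = 0.0460, edgeR), so the fold then rests on the DOX replicate 3 library that stood apart. PSMA7 had 29.1 and 5.05 in shDPPA2 DOX libraries against 44.2 and 25.9 with H2O, and its log2 fold change was -1.29 ± 0.44 (SE), with an adjusted p of 0.218 (edgeR). In the other lines the fold change of PSMA7 was -0.04 ± 0.43 (shDPPA4) and -0.12 ± 0.43 (shDPPA2+4), and the difference between shDPPA2 and shDPPA4, -1.26 ± 0.61, did not pass either (adjusted p = 0.930, edgeR).

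For H3K4me3, no member was lost or gained in any line (0.0262, 0.0157 and 0.0314% of promoters were lost and 0.089, 0.199 and 0.126% gained in shDPPA2, shDPPA4 and shDPPA2+4). All 47 member regions could be tested among 22060, and none was called in any line, against 0.0272, 0.0363 and 0.0% of all regions in shDPPA2, shDPPA4 and shDPPA2+4, or over the 3 lines, against 0.521% (0.331% lower and 0.19% higher with DOX). Changes in reads at the members were small and mostly below 0. Over the 3 lines they ran from -0.21 to 0.17 (log2) with a median of -0.03, and 36 of 47 were below 0, against 46.4% of the 11870 regions at promoters, whose median was 0.01. The median was -0.07 in shDPPA2, -0.02 in shDPPA4 and -0.04 in shDPPA2+4. In turn, 40, 26 and 32 of 47 were below 0, against 49.0, 45.2 and 47.7% of the regions at promoters. Scaling of the counts centres all tested regions near 0, so these are changes relative to the other regions. With library size alone as the scale, 30 of 47 were below 0 over the 3 lines. The share of all regions at that scale is not given. Covered length went the other way except in replicate 1 of shDPPA2+4. Lower and higher with DOX were 11 and 19 members, and 9 and 24, in shDPPA2 (replicates 1 and 2). They were 12 and 22, and 14 and 21, in shDPPA4, and 20 and 14, and 6 and 23, in shDPPA2+4. Of 13870 promoters, 17.4 to 35.8% were lower and 36.9 to 53.0% higher. Covered length was not tested.

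Past the adjusted p alone, 6 members were lower with DOX over the 3 lines (PSMD8, PSMA6, PSMC4, PSMA5, PSME3 and PSMC2), and none was higher. Of all 22060 regions, 5.53% were lower and 3.35% higher (8.88% in either direction). Among the 11870 regions at promoters 9.65% passed in either direction, against 12.8% of members. The 6 members were singled out after their values were seen, and each fell short of the fold threshold. The level of PSMD8, a subunit of the regulatory-particle lid, ranged from 21.3 to 27.9 CPM per kb with DOX (median 25.4) and from 26.1 to 30.4 with H2O (median 28.6, n = 6 each). It was lower in all 6 pairs, while the groups overlapped across lines and replicates. Its log2 fold change was -0.18 ± 0.03 (SE, adjusted p = 0.00746, edgeR). PSMA6, an alpha subunit, ranged from 19.9 to 29.4 with DOX (median 25.8) and from 25.7 to 31.3 with H2O (median 29.5), and changed by -0.21 ± 0.04 (log2, SE, adjusted p = 0.0103, edgeR). PSMC4, an ATPase, ranged from 22.2 to 27.8 with DOX (median 26.5) and from 26.2 to 30.3 with H2O (median 29.2), with -0.16 ± 0.04 (SE, adjusted p = 0.0148, edgeR). PSMA5, PSME3 and PSMC2 each fell by 0.12 on the log2 scale. Without the replicate number as a block, the smallest adjusted p among the 6 was 0.459, and over promoter windows instead of regions it was 0.101. Leaving out 1 library left between 2 and 6 of them under 0.05.

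**Figure D3:**
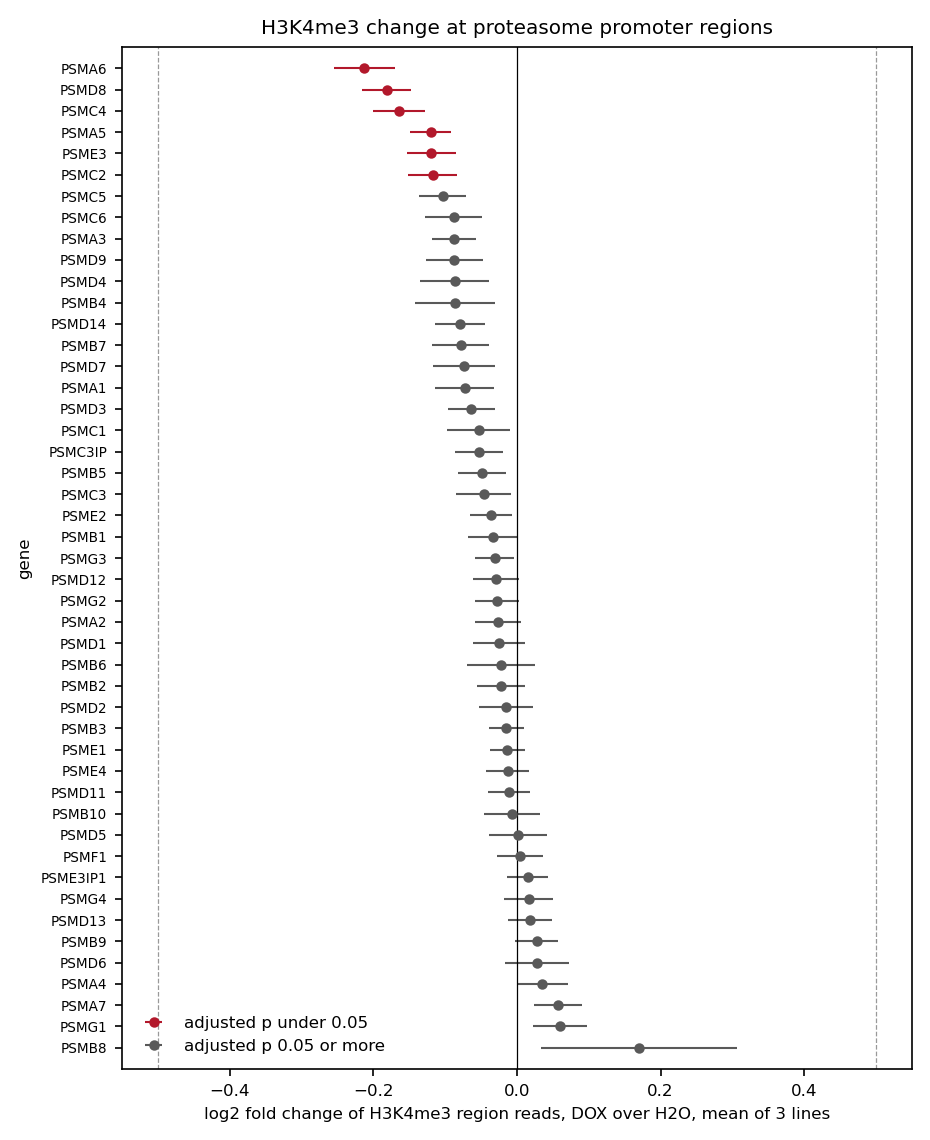
Log2 fold change of H3K4me3 region reads, DOX over H2O as the mean of 3 lines (x axis, bars show SE from the edgeR fit on 12 libraries), for 47 proteasome genes (y axis, sorted), with adjusted p under 0.05 in red and dashed lines at the threshold of 0.5. The points run from -0.21 (PSMA6) to 0.17 (PSMB8), all inside the dashed lines, and 36 lie below 0.

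H3K27me3 and SUZ12 were nearly absent from the family. In the 12 knockdown libraries no member was marked by H3K27me3, whereas 10.1 to 15.1% of promoters with H3K4me3 were with DOX and 11 to 15.1% with H2O. In the parental cells, 2 members were marked in 1 library each, PSMD8 with 630 bp in A-485 replicate 4 and PSMA6 with 400 bp in DMSO replicate 4. Those libraries marked 9.74 and 4.11% of promoters with H3K4me3. The PSMA6 peak had a log2 fold of 1.001, just over the filter of 1. It came from the H3K27me3 library with the fewest reads in kept peaks (498618). The SUZ12 library marked no member and 13.7% of promoters with H3K4me3. PSMD8 had H2AK119ub in the same treatment and replicate (1171 bp), and PSMA6 had none in any library. In the knockdown lines, H2AK119ub at the members was seen without called H3K27me3. No member had an H3K27me3 region that could be tested.

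A-485 was set against DMSO for H3K27ac. By the labels, the mark covered less of nearly every proteasome promoter with A-485, and none was called lost. The A-485 lists also held fewer reads in kept peaks, 780375 and 603895 (replicates 2 and 4), against 2709073 and 5647079 with DMSO. The part of read number in the covered length, the peak width and the losses was not tested. H3K27ac marked 46 and 38 of 49 members with A-485 (replicates 2 and 4), against 46 and 48 with DMSO. Of the 46 members marked in both DMSO libraries 0 were lost, against 12.2% of all promoters so marked (7.2% of all promoters), and in replicate 2 alone 0 of 46 were, against 16.0%. In replicate 4 alone 10 of 48 were lost, against 47% of 14325 promoters. With the treatments of replicate 4 exchanged, 0 of 38 members marked in both DMSO libraries were lost, against 0.0399% of promoters so marked. The 10 lost in replicate 4 as labelled were PSMA4, PSMA5, PSMA6, PSMB6, PSMB8, PSMB11, PSMD6, PSME3IP1, PSME4 and PSMG4.

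Covered length as labelled was lower with A-485 in both replicates. Over the 48 members with H3K27ac in any library, the median was 1100 bp with A-485 and 1900 bp with DMSO in replicate 2, and 1000 and 2042 bp in replicate 4. It was lower with A-485 in 45 of 48 in replicate 2 (76.4% of promoters were) and in 42 of 48 in replicate 4 (94.5% of promoters). Were the treatments of replicate 4 exchanged, its medians would change places, with 5 of 48 members lower with A-485 (3.71% of promoters) and 42 of 48 higher (94.5%), so that the direction in replicate 4 rests on its labels. In both pairs as labelled 39 of 48 members were lower (81.2%), against 71.4% of 14459 promoters, and none was higher, against 0.0553%. No member was gained, nor was any promoter (0.0%). The 38 members marked in all 4 lists had a median log2 ratio of ChIP over input of 3.43 and 2.29 with A-485 against 4.21 and 2.53 with DMSO (replicates 2 and 4), in which the input of replicate 4 is that of the other treatment. Their median peak width was 900 and 900 bp with A-485 against 1800 and 2000 bp with DMSO, close to the 1000 and 1000 bp against 1900 and 2300 bp of the 7130 promoters marked in all 4 lists.

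**Figure D4:**
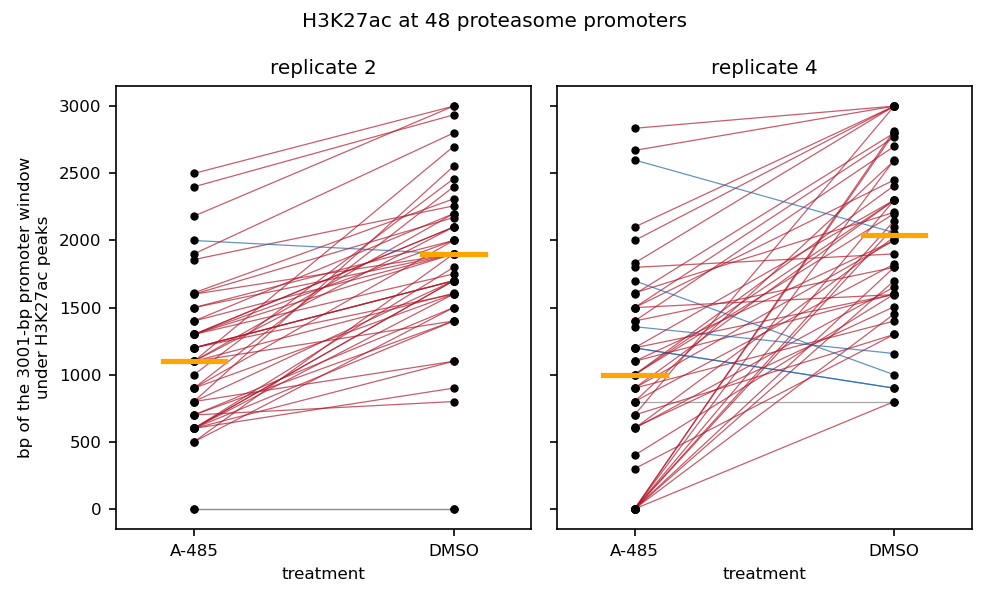
Bases of the 3001-bp window under H3K27ac peaks (y axis) with A-485 and DMSO for the 48 proteasome genes with H3K27ac in any library (points), joined by gene, in replicate 2 (left) and replicate 4 (right, by its labels), with red lines for less, blue for more and grey for equal coverage with A-485 and orange bars at the medians. The medians are 1100 bp with A-485 and 1900 bp with DMSO in replicate 2, and 1000 and 2042 bp in replicate 4.

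Single genes ranged widely around these medians. PSMB6, a catalytic subunit, had 500 and 0 bp with A-485 against 1900 and 2101 bp with DMSO (replicates 2 and 4). PSMF1 had 600 and 700 bp against 1600 and 3001 bp. PSMC4 had 2400 and 2836 bp against 2936 and 3001 bp, and PSMA7 2500 and 2100 bp against 3001 and 3001 bp. The immunoproteasome subunit PSMB9 had 800 and 1000 bp with A-485 against 1100 and 2409 bp with DMSO, and PSMB10 1300 and 1500 bp against 1751 and 2451 bp. PSMB8 was covered only in DMSO replicate 4 (800 bp), and PSMB11 only there too (2801 bp). Among activators, PSME1 had 500 and 800 bp with A-485 against 1500 and 2594 bp with DMSO, PSME2 1610 and 1610 bp against 2310 and 2210 bp, PSME3 1200 and 1500 bp against 1600 and 1597 bp, and PSME4 1300 and 0 bp against 2000 and 1800 bp. PSMA8 had none in any list.

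Read counts in regions with H3K27ac in all 4 lists could be tested for 38 members, at 39 of 8967 regions. None was called, nor was any region (0.0%, with 662 at an unadjusted p under 0.05). This test is centred on all regions, and so it compares members with the rest of the mark. The lowest changes were those of PSME1 (-0.80 ± 0.49, SE), PSMD13 (-0.63 ± 0.43) and the chaperone PSMG1 (-0.45 ± 0.50), and the highest those of PSMC6 (0.75 ± 0.57), the beta subunit PSMB1 (0.63 ± 0.57) and the alpha subunit PSMA1 (0.60 ± 0.45), with adjusted p of at least 0.854 (edgeR). These values pool both replicates. With the treatments of replicate 4 exchanged, PSME1 was 0.67, PSMD13 -0.0044, PSMG1 0.71, PSMC6 -0.98, PSMB1 -0.67 and PSMA1 -0.47 (log2, adjusted p of 0.9998 each, edgeR), so that the order rests on the labels of replicate 4. PSME1 had 9.89 and 12.1 CPM per kb with A-485 against 10.8 and 33.3 with DMSO, so its fold came from replicate 4. PSMC6 had 28.9 and 66.7 with A-485 against 33.9 and 20.4 with DMSO, which differ in direction between replicates. PSMD13 had 27.3 and 15.8 with A-485 against 41.0 and 25.3 with DMSO, lower in both replicates. PSMG1 had 54.6 and 16.6 against 46.4 and 40.7, PSMB1 22.8 and 41.7 against 23.2 and 17.0, and PSMA1 40.8 and 36.8 against 37.3 and 17.0. The regions of these 6 genes held between 13 and 61 reads per A-485 library, which limits the precision.

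H2AK119ub in the parental cells was found at few members, 5 and 9 with A-485 against 10 and 5 with DMSO (replicates 3 and 4). PSMA7 had 2094 and 1207 bp with A-485 against 1907 and 2094 bp with DMSO, and PSMB9 1209 and 400 bp against 1709 and 1100 bp. Of the 2 members marked in both DMSO libraries (PSMA7 and PSMB9) none was lost, against 8.12% of promoters so marked and 1.36% of all. Of the 36 marked in neither PSME1 alone was gained, against 1.18% of promoters so classed and 0.68% of all, with 900 and 400 bp with A-485 against 0 and 0 bp with DMSO. Of the 18 members marked in any parental library, 1 was lower in both pairs (PSMB9), against 18.1% of promoters, and 1 was higher (PSME1), against 8.13%. The test covered 4 regions at PSMA7 and PSMB9. In the region with the larger overlap the log2 fold change was 0.57 ± 0.43 (SE) at PSMA7 and 0.16 ± 0.56 at PSMB9, none was called (adjusted p of at least 0.908, edgeR), nor was any of 4515 regions (0.0%, with 132 at an unadjusted p under 0.05). These 2 regions held 11 to 67 reads per library.

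The wider pathway was read from 28 genes that assemble the proteasome, deliver substrates to it or control its genes. All 28 had H3K4me3 in all 12 libraries. H2AK119ub was found in all 6 H2O libraries at ADRM1 (a ubiquitin receptor), UBE3C, ZFAND5, DDI2 (the protease that activates NFE2L1), UBQLN4 and SQSTM1 (a ubiquitin-binding autophagy receptor), and SEM1, PAAF1, TXNL1 and UBA6 were among the genes with it in none. The shuttle factor UBQLN4 was lost in shDPPA2. In shDPPA4 0 of 28 were lost, and in shDPPA2+4 2 were (FBXO7 and NFE2L1, the transcription factor of proteasome genes), against the shares of promoters given above. None was gained in any line. NFE2L1 had 1201 and 0 bp with DOX against 600 and 342 bp with H2O in shDPPA2, 800 and 0 bp against 600 and 0 bp in shDPPA4, and 0 and 0 bp against 2242 and 800 bp in shDPPA2+4. Its relative NFE2L2 had 1400 and 0 bp with DOX against 0 and 1900 bp with H2O in shDPPA2, 427 and 0 bp against 2474 and 1400 bp in shDPPA4, and 2127 and 0 bp against 1500 and 900 bp in shDPPA2+4. Both were at 0 in each DOX replicate 3 library.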

How the data were processed

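Histone marks were measured by ChIP-Rx-seq, in which mouse chromatin is added as a reference. The mouse reads were not used here. The submitters' processing notes name Trim Galore 0.6.6, BWA 0.7.13, SAMtools 1.9, Picard 2.6.0 and deepTools 3.5.0, with hg38 as the build. The authors called broad domains with EPIC2 in each library against an input. The deposited ChIP and input columns hold whole counts of reads per domain, not normalized. The deposited fold column is the log2 ratio of ChIP over input, and the deposited significance columns hold the p-value and FDR of each domain, which served only to filter peaks. The deposited score was left out, since it repeats the log2 fold up to a limit. The SUZ12 list has EPIC2 columns although the study names another caller. Blacklisted regions were not removed.

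Of the 59 samples, 51 had a list, and 8 inputs entered only through it. Peaks were kept when their log2 fold exceeded 1 with FDR below 0.05 (75.6 to 99.0% of a list). Reads in kept peaks numbered 8394879 to 19379794 per H3K4me3 library, 1330926 to 4136521 (H2AK119ub) and 1085365 to 10545826 (H3K27me3) in the knockdown lines, and 390762 to 2133807 (H2AK119ub), 603895 to 5647079 (H3K27ac) and 498618 to 12005354 (H3K27me3) in the parental cells. Peaks of all libraries of a mark were merged into regions. Regions that held a peak in each library and averaged 10 reads or more were tested with edgeR 4.0.16 (quasi-likelihood, TMM, Benjamini-Hochberg over all regions), with treatment groups and the replicate number as a block, following the study, whose model has a batch term. Deviations of libraries with the same number correlated at 0.239 to 0.706 (H2AK119ub), 0.357 to 0.543 (H3K4me3) and -0.0904 to 0.688 (H3K27me3) in the knockdown lines, and at 0.366 to 0.543 with A-485. The fit was also run on simulated counts with seeded changes, a fixed spread and no replicate effect, and the outcome is not reported here. DESeq2 1.42.0, other scalings, other peak filters, other windows and leaving out libraries were tried. Since the labels number the replicates without naming separate cultures, p-values reflect only how these libraries vary.

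Members and gene lists were chosen with earlier results of these data known. Values per library are given for members that lost or gained H2AK119ub, the inducible, tissue-restricted, activator and inhibitor genes, the 3 highest and 3 lowest H3K27ac changes, members without H3K4me3, the 3 most and 3 least covered by H2AK119ub with H2O, and members with H3K27me3. Other genes were named after their values were seen. Some genes of the marker and pathway lists are not reported here.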

Additional observations from a re-analysis of the deposited data

Results flagged for a closer look

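The H2AK119ub coverage of 2 proteasome promoters moved in opposite directions in 2 lines, each in both pairs of libraries. How many of all promoters did so was not counted. Of 14901 promoters, 59.2 and 15.0% were higher with DOX in shDPPA2 (replicates 1 and 3), and 21.4 and 24.5% in shDPPA2+4. Lower with DOX were 18.8 and 55.3% in shDPPA2 and 64.2 and 47.3% in shDPPA4. In replicate 1, PSMB8 thus moved with most promoters in both of its lines. At PSMB8 the mean difference, DOX minus H2O, was 1354 bp in shDPPA2 and -1800.5 bp in shDPPA4. At PSMG2, an assembly chaperone whose window also holds the start of CEP76, it was 270.5 bp in shDPPA2+4 and -529.5 bp in shDPPA2. PSMG2 had 1700 and 700 bp with DOX (replicates 1 and 3) against 1359 and 500 bp with H2O in shDPPA2+4, and 1100 and 0 bp against 1159 and 1000 bp in shDPPA2, where nearly all of the difference was that of replicate 3. The differences in covered bases were not tested. For reads in the PSMB8 region the difference between shDPPA2 and shDPPA4 was 1.27 ± 0.69 (log2, SE) and did not pass (adjusted p = 0.930, edgeR). The values of all 3 lines include a DOX replicate 3 library that stood apart, and the part of these libraries was not tested.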

How the results depend on the processing

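The counts of called regions and most fold changes kept their side of the threshold, while counts of lost and gained promoters, which rest on few genes, moved. For H2AK119ub in shDPPA2, DESeq2 called 1 member region (PSMB3, -1.85). The share of all tested regions that DESeq2 called there is not given, so this count has no background. Without DOX replicate 1, which leaves 1 DOX library in the line, PSMB3 was at -2.98. In what follows, the share of all promoters called under the same setting stands in parentheses. Members that lost H2AK119ub numbered 3 in shDPPA2 (5.08%) and 3 in shDPPA2+4 (3.95%) with a log2 fold over 1.5. With all deposited peaks there were 0 in both (0.895 and 1.19%). With at least 1 bp under peaks there were 2 in shDPPA4 (4.84%) and 0 in shDPPA2+4 (2.18%), as PSMB10 was then lost in neither. At least 1500 bp under H2AK119ub peaks gave 1 in shDPPA4 (3.9%). Members that gained it numbered 0 in shDPPA2 and in shDPPA4 with at least 1500 bp (1.36 and 0.0523%), within 500 bp of the TSS (1.28 and 0.204%) and with all deposited peaks (1.52 and 0.256%). With A-485, 16 of the 31 members so marked lost H3K27ac at 1500 bp (18.2%, or 52.6% of promoters so marked), and for H2AK119ub 1 member was lost within 500 bp of the TSS (1.34%) and 1 with all deposited peaks (1.48%), and 0 were gained within 500 bp (0.675%) or at 1500 bp (0.0785%). With 1 replicate number left out, 4 to 14 members lost H2AK119ub (6.94 to 26.2%) and 1 to 5 gained it (4.23 to 11.5%) in shDPPA2, 7 to 11 (15.9 to 17.6%) and 2 to 6 (4.51 to 5.43%) in shDPPA4, 5 to 8 (10.1 to 12.2%) and 1 to 1 (6.7 to 6.82%) in shDPPA2+4, and 3 to 7 (7.94 to 10.3%) and 2 to 7 (4.57 to 11.3%) with A-485, while 0 to 10 lost H3K27ac (9.56 to 35.2%). With the treatments of H3K27ac replicate 4 exchanged, an alternative chosen after seeing the data, 0 members were lost (0.0157%) and 0 gained (0.105%). The share of members with H3K4me3 that carried H2AK119ub, DOX minus H2O, given by replicate number above, was an alternative chosen after seeing the data. The fit without the replicate block called 0 member regions in every contrast, as the fit with it did, but over all H3K4me3 regions and 3 lines it called 0 against 115, and DESeq2 called 41. In all, 212 recomputed counts stayed within 1.5 times the main count and 35 moved, and 574 recomputed fold changes of named members kept their call while 2, both of PSMB3, became called. No called value reversed. The cause of the moves was not tested. Depth limits H2AK119ub and H3K27ac with A-485, where the members tested held few reads, and regions without a peak in some library could not be tested. Changes in total mark are not seen, since the mouse reads were not used.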
